A study of Homo sapiens with 16 samples.

Results

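The comparison set HEK293 cells with optimized receptors against HEK293 cells with wild-type receptors after both had received H11, a variant of interferon lambda 3 (IFNL3) that the labels call high-affinity. The rule took every library with that treatment, 2 of each genotype, which gave 4 of the 16 libraries of the series. HEK293 is a human embryonic kidney line, kept here in Free-style medium. The series text calls the modified cells geometry-optimized, and no source used here says which receptor chains were altered, how the alteration was introduced or whether the cells are 1 clone. Each H11 library came from cells given 100 nM of the ligand for 15 min, and a time of 24 hr also stands in the labels, with no word on how the times relate. The other 12 libraries hold optimized and wild-type cells with IFNw (interferon omega, a type I interferon, 100 nM), with unmodified IFNL3 (100 nM) and untreated, 2 libraries of each. No mock-treated group is among them. The labels number the replicates as biological, with no word on separate cultures, so p-values measure the spread between these libraries.

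Type III interferons such as IFNL3 bind a receptor made of IFNLR1 and IL10RB, while type I interferons such as IFNw bind IFNAR1 and IFNAR2. Both receptors carry the kinases JAK1 and TYK2 and, as background knowledge, activate STAT proteins, which join IRF9 in the complex ISGF3. That complex binds the interferon-stimulated response element (ISRE) in promoters and turns on antiviral genes. Type I receptors are found on most cells, and IFNLR1 mainly on epithelial cells.

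The promoters of 4 genes are shown because they stand for the outcomes described below: ISG15 and B2M were higher in optimized cells with H11, OAS3 was lower, and IRF9 was not called. Each is the stretch of 250 bases just before the start site, 5′ to 3′, from RefSeq (GRCh38.p14). Capitals mark the core of the ISRE, GAAA and GAAA with any 2 bases between them, and the core of the gamma-activated site (GAS), TTC and GAA with any 3 bases between them, both searched on both strands. Overlapping matches merge into 1 run.
ISG15, chr1:1013247-1013496, plus strand: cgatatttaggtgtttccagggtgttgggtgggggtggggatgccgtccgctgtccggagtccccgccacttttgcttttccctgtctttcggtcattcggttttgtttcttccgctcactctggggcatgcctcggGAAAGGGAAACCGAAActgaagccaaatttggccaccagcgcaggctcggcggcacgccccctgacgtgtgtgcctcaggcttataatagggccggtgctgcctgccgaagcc
B2M, chr15:44711267-44711516, plus strand: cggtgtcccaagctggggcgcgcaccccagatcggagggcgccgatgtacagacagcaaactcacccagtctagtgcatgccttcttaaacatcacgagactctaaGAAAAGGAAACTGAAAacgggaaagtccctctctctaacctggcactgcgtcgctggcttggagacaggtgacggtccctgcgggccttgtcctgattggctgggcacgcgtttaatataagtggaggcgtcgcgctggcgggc
OAS3, chr12:112938224-112938473, plus strand: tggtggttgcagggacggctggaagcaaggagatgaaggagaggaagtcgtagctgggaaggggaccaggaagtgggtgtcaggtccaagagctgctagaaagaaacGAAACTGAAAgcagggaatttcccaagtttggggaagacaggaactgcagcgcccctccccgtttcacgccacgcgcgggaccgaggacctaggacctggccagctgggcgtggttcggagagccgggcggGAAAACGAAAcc
IRF9, chr14:24161015-24161264, plus strand: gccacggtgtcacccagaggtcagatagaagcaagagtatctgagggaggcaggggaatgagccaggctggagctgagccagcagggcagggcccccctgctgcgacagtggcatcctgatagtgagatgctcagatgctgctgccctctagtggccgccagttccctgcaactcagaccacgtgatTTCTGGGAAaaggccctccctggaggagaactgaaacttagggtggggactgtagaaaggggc
ISG15 held ISRE cores beginning 113 and 107 bases before the start site, B2M 144 and 138 bases before it, and OAS3 143 and 12 bases before it. In IRF9 no ISRE core was found in this window and the GAS core began 63 bases before the start site.

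Gene targets were read to totals of 9632766 and 8519241 in optimized cells with H11 and 9150199 and 9499486 in wild-type cells with H11, within the 5331203 to 9822088 reads of all libraries. Libraries of wild-type cells with H11 stood apart from those of optimized cells with H11, and were like those of wild-type cells with IFNL3. In wild-type cells with H11 the 50 most abundant genes took 18.5% and 18.0% of reads. The share was 28.4% and 28.2% in optimized cells with H11, 27.8% to 28.7% with IFNw and 25.4% to 25.7% in untreated cells of either genotype. Scaling factors (TMM) were 1.26 and 1.27 in wild-type cells with H11, 0.81 and 0.83 in optimized cells with H11 and 1.05 to 1.07 in untreated cells. Levels relative to the mean of all libraries also went with transcript length across genes. Spearman's rho was -0.30 in both optimized H11 libraries, 0.30 and 0.28 in the wild-type H11 libraries and 0.06 to 0.11 in untreated libraries. By these values both H11 groups differed from untreated cells, in opposite directions. The genotype difference with H11 had a rho of -0.33 with length, -0.24 with IFNL3, 0.001 with IFNw and -0.01 in untreated cells. What part composition or length had in the results was not tested, but values from a refit with an offset for transcript length (the length offset) stand beside the list medians and the values of named genes that it moved by over 1.5 times, and beside calls it changed. Of the HEK293-associated genes 11 were measured and summed to 67.5 and 78.6 CPM (TMM-normalised counts scaled to a common library size) in optimized cells with H11 and 120 and 126 CPM in wild-type H11 libraries, with 72.0 to 123 CPM in the other libraries. LHX1, SALL1, INA and LIN28B were read in every H11 library, and NEFH had 0 reads in all 4. The leukocyte markers PTPRC, CD3E and LYZ, the fibroblast genes COL1A2 and COL3A1 and the hepatocyte genes ALB and TTR also had 0 reads in these 4 libraries. Other members of these marker lists were read, among them CD14, with 0 reads in optimized and 18 in wild-type cells with H11. Of the HEK293-associated genes 7 could be tested, with 0 higher and 5 lower (median -0.70, or -1.29 without replicate 1 of optimized cells), and 3 lower without replicate 2 of optimized cells or with the length offset. The 7 tested ran from -2.14 to -0.55, the last being LIN28B, and PAX2 was at -1.66. LIN28B lost its call with the length offset (-0.39) and without replicate 2 of optimized (-0.45) or replicate 1 of wild-type cells (-0.44). INA (-0.65) and SALL1 (-0.63) lost theirs with that offset (-0.37 and -0.18), and SALL1 also without replicate 2 of optimized (-0.51) or of wild-type cells (-0.52). Blood markers summed to 1.28 and 2.27 CPM in optimized cells and 5.87 and 6.43 CPM in wild-type cells, and CD68 was the 1 tested (-1.88 ± 0.40). Of 8 fibroblast markers 2 were tested and 0 called, and the 8 summed to 19.8 and 21.3 CPM in optimized and 18.9 and 27.1 CPM in wild-type cells. No hepatocyte or epithelial marker and none of 9 interferon genes had enough reads to test.

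With H11, 3251 genes were higher and 3314 lower in optimized than in wild-type cells, of 12704 tested. That is 25.6% higher, 26.1% lower and 51.7% in all at a Benjamini-Hochberg adjusted p under 0.05 in edgeR's quasi-likelihood test. Of these, 1853 were higher and 1409 lower by 2-fold or more, and 416 were higher and 212 lower by 4-fold or more. The median over all genes tested was -0.05 (log2 fold change, optimized over wild-type, as throughout, with ± for its standard error). With calls on 51.7% of the genes, a count of called members says little without the size of the change, so list medians are given beside it. Between untreated optimized and untreated wild-type cells, no gene passed in edgeR (0 genes, 0%) and 0 passed in DESeq2. Before adjustment, 705 genes had a p under 0.05 in edgeR. The untreated count rose when replicate 1 of untreated optimized cells was left out, and stayed the same without replicate 2. Replicate 2, the library then standing alone, had the fewest reads of all libraries (5331203). The 2 libraries of that group correlated at 0.965 in log CPM, against 0.983 to 0.986 in the other groups. With IFNw the genotypes also differed in 0 genes (0%) by edgeR and in 0 by DESeq2, and 439 genes had an edgeR p under 0.05 before adjustment. Against IFNw in the same genotype, optimized cells with H11 differed in 0 genes (0%) by edgeR, where 279 had a p under 0.05 before adjustment.

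**Figure D1:**
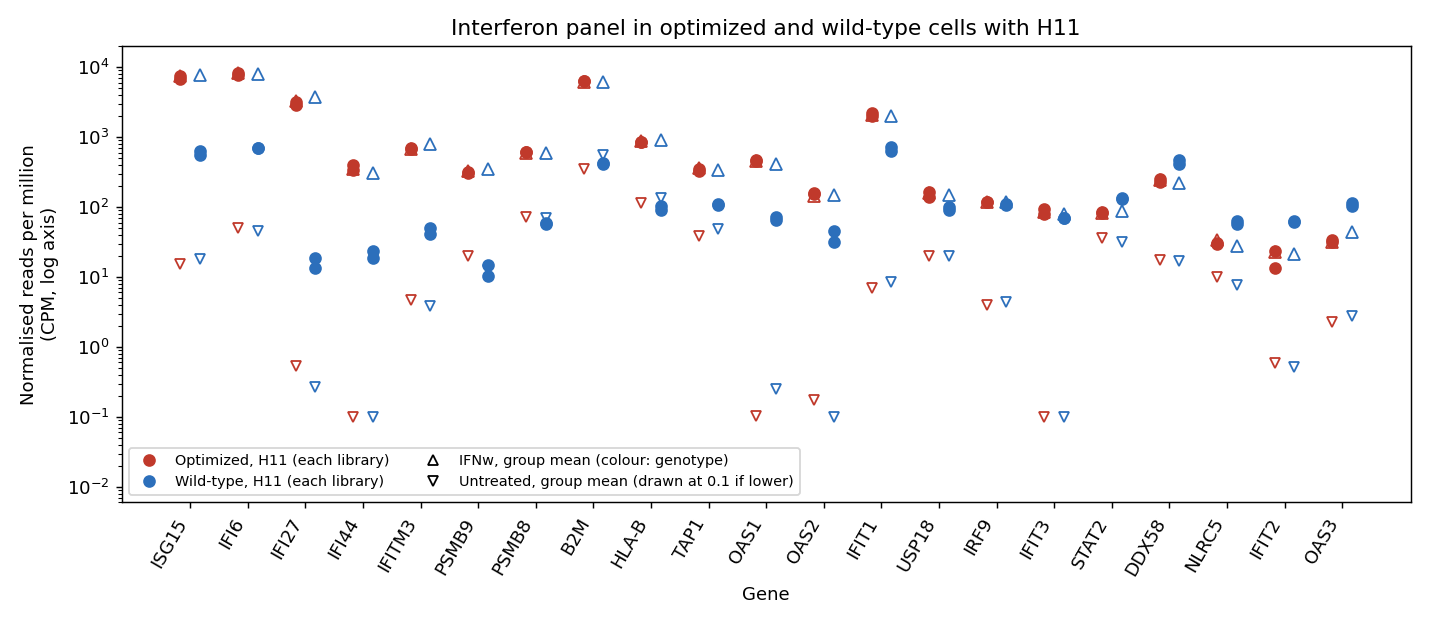
Levels of interferon-stimulated genes in CPM (log axis), with a filled point for each H11 library of optimized (red) and wild-type (blue) cells and open triangles for the group means with IFNw and without treatment. From ISG15 to USP18 the optimized points lie above the wild-type points, at the height of the IFNw means, whereas from STAT2 to OAS3 they lie below them.

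Most genes of the IFI6, IFI27 and IFI44 families and of the IFITM family were far higher in optimized cells. IFI27, one of them, was at 3180 and 2908 CPM in optimized cells with H11, against 13.5 and 18.4 CPM in wild-type cells with H11. Group means were 3044 ± 192 and 15.9 ± 3.46 CPM (SD, n = 2 each), and the log2 fold change was 7.58 ± 0.21 (Benjamini-Hochberg adjusted p = 1.2e-13, edgeR quasi-likelihood test). Wild-type cells did make the transcript with IFNw, at a mean of 3731 CPM. IFI6, which blocks formation of flavivirus replication sites, was at 8228 and 7811 CPM in optimized cells against 699 and 689 CPM in wild-type cells (3.53 ± 0.12). In bulk samples, fewer responding cells and less RNA per cell cannot be told apart. Both wild-type values were above the untreated wild-type mean of 44.8 CPM. IFI44 was at 402 and 338 CPM against 23.3 and 18.6 CPM (4.14 ± 0.16) and IFI44L at 40.8 and 45.9 CPM against 3.65 and 2.81 CPM (3.74 ± 0.20). In all, 5 of the 6 IFI6, IFI27 and IFI44 family genes were higher and 0 lower, with a median of 3.84, or 3.50 with the length offset. The IFITM proteins, which hinder fusion of virus and cell membranes, were called higher in 3 of 4. IFITM3 was at 688 and 681 CPM in optimized cells against 41.2 and 50.2 CPM in wild-type cells (3.90 ± 0.17). IFITM1 (3.85) and IFITM2 (3.01) were the others called (list median 3.43), and reads may be shared among these near-identical genes.

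The ISG15 system differed by step. ISG15, a ubiquitin-like modifier, was at 6759 and 7526 CPM in optimized cells with H11 and 544 and 627 CPM in wild-type cells with H11. Group means were 7143 ± 542 and 586 ± 58.8 CPM (SD, n = 2 each), with a log2 fold change of 3.61 ± 0.14 (Benjamini-Hochberg adjusted p = 8.2e-12, edgeR quasi-likelihood test). The activating enzyme UBA7 was higher by 1.45 ± 0.24 and the conjugating enzyme UBE2L6 by 2.96 ± 0.16. UBE2L6 was at 112 and 113 CPM in optimized cells against 13.6 and 15.5 CPM in wild-type cells, below the 24.6 CPM of untreated wild-type cells. The ligases parted from them: HERC5 was at -0.25 ± 0.14 and not called, and TRIM25, which also modifies RIG-I, was at -1.08 ± 0.15, or -0.65 with the length offset. USP18, which removes ISG15 and restrains the type I receptor, had 140 and 166 CPM in optimized cells and 91.1 and 98.7 CPM in wild-type cells (0.69 ± 0.13). In all, 4 of the 6 genes were higher and 1 lower (median 1.07).

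Gene families that bind viral RNA were split between members. OAS1, which makes the activator of RNase L, was at 473 and 447 CPM in optimized cells with H11 against 71.5 and 64.4 CPM in wild-type cells with H11 (2.76 ± 0.17). OAS2 was also higher, at 159 and 154 CPM against 44.7 and 31.5 CPM (2.04 ± 0.18), as was OASL (2.31 ± 0.27), which made 3 of 5 family members higher and 1 lower (median 2.04). OAS3 went the other way, with 33.9 and 31.1 CPM in optimized cells and 115 and 102 CPM in wild-type cells. Its fold change was -1.74 ± 0.16 (Benjamini-Hochberg adjusted p = 7.9e-08, edgeR quasi-likelihood test). The wild-type level with H11 also exceeded the means of 32.0 and 44.0 CPM that IFNw gave in optimized and wild-type cells. The IFIT genes, which bind foreign RNA ends, divided likewise. IFIT1 was at 2215 and 2019 CPM against 722 and 637 CPM (1.64 ± 0.12), whereas IFIT2 was at 23.5 and 13.6 CPM in optimized cells against 60.1 and 62.0 CPM in wild-type cells (-1.71 ± 0.21). IFIT3 lay between them, at 93.8 and 80.2 CPM against 68.8 CPM in both wild-type libraries (0.34 ± 0.13). With IFIT5 (0.78 ± 0.15, or 1.18 with the length offset), 3 of 4 were higher and 1 lower (median 0.56). The call of IFIT3 was lost without the low-count filter, without replicate 1 of optimized cells (0.24) or without either wild-type library (0.34 in both cases).

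Among the sensors of viral RNA and their adaptor, 4 of 7 were lower and 2 higher in optimized cells (median -0.55, or -0.25 with the length offset). With that offset, without replicate 1 of optimized cells or without replicate 2 of wild-type cells, 2 were lower and 2 higher. DDX58, the sensor RIG-I, was at 255 and 226 CPM in optimized cells with H11 against 465 and 410 CPM in wild-type cells with H11 (-0.86 ± 0.14, or -0.44 with the length offset). MAVS, the mitochondrial adaptor of these sensors, was at 10.8 and 9.10 CPM against 19 and 23.3 CPM (-1.09 ± 0.18), a call lost with the length offset (-0.30). IFIH1, the sensor MDA5, was at -0.55 ± 0.19, and its call was lost with that offset (-0.25) and without any 1 of the 4 libraries (-0.62 to -0.46). DHX58, a relative of RIG-I that lacks signalling domains, was higher, at 18.1 and 19.9 CPM against 3.13 and 2.65 CPM (2.71 ± 0.25), and DDX60 was higher by 1.43.

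Of 45 other antiviral effectors tested, 18 were higher and 10 lower, with a median of 0.21, or 0.39 with the length offset. Without replicate 1 of optimized cells 6 were lower, as without replicate 2. IFI35, a partner of NMI, was at 192 and 184 CPM in optimized cells against 21.7 and 17.9 CPM in wild-type cells (3.25 ± 0.17). BST2, which tethers virus particles to the cell, had 926 and 893 CPM in optimized cells against 464 and 403 CPM in wild-type cells (1.07 ± 0.13). On the lower side, ZC3HAV1, a zinc-finger protein that marks viral RNA for decay, was at 81.8 and 63.7 CPM in optimized cells against 236 and 203 CPM in wild-type cells (-1.59 ± 0.18). HELZ2 (-1.22, or -0.54 with the length offset), PML (-1.21), which organises nuclear bodies, and the partners PARP9 (-1.05) and DTX3L (-0.91) were lower as well. REC8, a meiotic cohesin subunit that IFNw raised here, had 13.3 and 12.9 CPM in optimized cells and 50.9 and 51.8 CPM in wild-type cells (-1.96 ± 0.16). MX1 was read at 0.77 and 0.711 CPM in optimized cells and 0.696 and 0.745 CPM in wild-type cells, too few reads to show a difference.

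Among transcription factors of the pathway, IRF9 was not called. IRF9 was at 118 and 119 CPM in optimized cells with H11 and 108 and 112 CPM in wild-type cells with H11 (0.10 ± 0.12, Benjamini-Hochberg adjusted p = 0.49, edgeR quasi-likelihood test), and its fold change was -0.22 with the length offset. All 4 libraries lay well above the untreated wild-type mean of 4.44 CPM. STAT2 was lower in optimized cells, at 83.0 and 83.9 CPM against 135 and 129 CPM (-0.66 ± 0.13, or -0.41 with the length offset), and so was IRF1 (-1.02 ± 0.19), a factor that interferon gamma induces. IRF7, which amplifies interferon production, was at 315 and 365 CPM against 171 and 232 CPM (0.75 ± 0.20), a call lost without replicate 1 of wild-type cells (0.55). IRF3, which the sensors activate, was at 0.91 ± 0.18. IRF5 was at 0.47 ± 0.19, a call lost by DESeq2, without the low-count filter, with the length offset and without any 1 of the 4 libraries. Of the 10 tested factors 3 were higher and 2 lower (median 0.22), with 1 higher without replicate 1 of wild-type cells, and of 7 feedback regulators 1 was higher and 3 lower. The median of the feedback list was -0.25. It was -0.07 with the length offset and -0.40 with only the groups compared, and a library left out moved it to values from -0.52 to 0.08, with both signs among them. Its lower members were the phosphatases PTPN11, at 67.5 and 66.5 CPM against 185 and 170 CPM (-1.41 ± 0.16), and PTPN2 and the SUMO ligase PIAS1. PTPN2 lost its call without replicate 2 of optimized cells (-0.50) or either wild-type replicate (-0.74 and -0.64), and PIAS1 with the length offset (-0.07).

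IFNLR1, listed under its older name IL28RA, was at 2.05 and 3.98 CPM in optimized cells with H11 and 1.39 and 3.39 CPM in wild-type cells with H11, with overlapping groups (0.32 ± 0.43, or 0.13 with the length offset). IL10RB was at 19.6 and 22.9 CPM against 9.65 and 11.9 CPM (0.98 ± 0.17), while means were 24.0 CPM in untreated optimized and 21.6 CPM in untreated wild-type cells. JAK1 was at 7.44 and 6.97 CPM against 16.3 and 13.5 CPM (-1.05 ± 0.28), a call lost with the length offset (-0.55). The interferon gamma receptor chain IFNGR1 was at 50.5 and 44.4 CPM against 24.3 and 24.2 CPM (0.97 ± 0.15), and the erythropoietin receptor EPOR at 6.54 and 6.82 CPM against 3.22 and 3.06 CPM (1.09 ± 0.26). IFNGR2 was at 0.48 ± 0.16, a call lost with the length offset (0.38) and without replicate 1 of optimized (0.37) or replicate 2 of wild-type cells (0.41). IFNAR2 (0.25, or 0.04 with the length offset), TYK2 (-0.43) and JAK2 (-0.69) were not called, but TYK2 was called lower with the length offset (-0.77) and without the low-count filter (-0.44). IFNAR1 was at -0.61 ± 0.24, and was not called by DESeq2 (-0.59), with the length offset (-0.32), without either optimized library (-0.47 and -0.73) or without replicate 2 of wild-type cells (-0.44). Of the 11 tested members 4 were higher and 2 lower. Their median was 0.32, but 0.13 with the length offset, 0.13 without replicate 2 of wild-type cells and -0.21 without replicate 2 of optimized cells, and in each of these settings 1 was lower. No source used here places the targets within their transcripts, so these levels are no check of the receptor genotype.

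**Figure D2:**
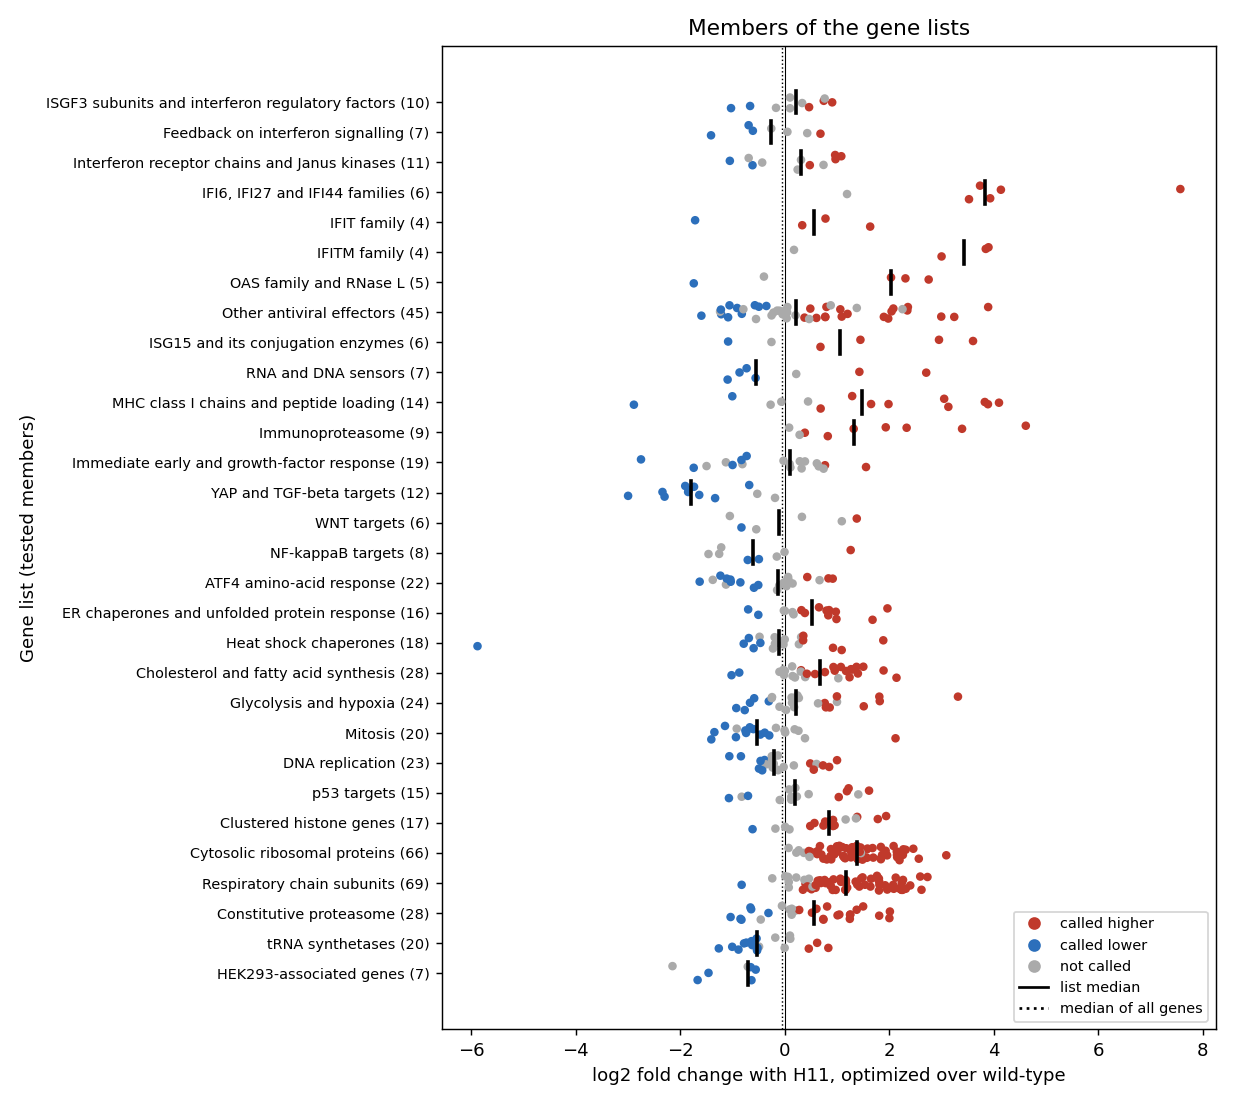
The log2 fold change with H11 of every tested member of the gene lists, optimized over wild-type, coloured by call, with a bar at each list's median and a dotted line at the median of all genes. Points of the IFI, IFITM, MHC class I and immunoproteasome lists reach the far right, the YAP and TGF-beta targets lie to the left, and the ribosomal protein and respiratory chain lists lie right of 0 almost as a whole.

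Genes that present antigen on MHC class I were much higher in optimized cells. B2M, the light chain of every class I molecule, was at 6282 and 6212 CPM in optimized cells with H11 and 415 and 426 CPM in wild-type cells with H11 (3.89 ± 0.24). Wild-type cells with H11 lay below the untreated wild-type mean of 545 CPM, which was not called (-0.37, Benjamini-Hochberg adjusted p = 0.2, edgeR quasi-likelihood test), a contrast that shares the wild-type H11 libraries. HLA-B was at 839 and 841 CPM against 89.1 and 102 CPM (3.14 ± 0.18), and HLA-E (1.99 ± 0.14) was higher too, with the caution that class I genes share sequence. TAP1, a chain of the pump that carries peptides, was at 347 and 328 CPM against 105 and 109 CPM (1.66 ± 0.12), whereas its partner TAP2 was at -0.27 ± 0.23 and not called. NLRC5, the transactivator of class I genes, was lower in optimized cells, at 29.5 and 30.8 CPM against 57.2 and 63.5 CPM (-1.0 ± 0.17). In all, 9 of 14 were higher and 2 lower (median 1.48). The lower members were NLRC5 and the loading chaperone TAPBP, at 0.898 and 0.426 CPM in optimized cells and 5.13 and 4.96 CPM in wild-type cells (-2.88 ± 0.60).

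The subunits that turn the proteasome into its immune form followed the same direction. PSMB9 was at 309 and 315 CPM in optimized cells with H11 and 10.3 and 15.0 CPM in wild-type cells with H11 (4.62 ± 0.19). PSMB8 was at 620 and 604 CPM against 56.9 and 59.2 CPM (3.40 ± 0.13). Against untreated wild-type cells, neither was called in wild-type cells with H11 (-0.01 for PSMB9 and -0.25 for PSMB8). PSMB10 (1.94) and the activator subunits PSME1 (1.32) and PSME2 (2.34) were also higher. Of the 9 genes in the list, which includes the constitutive subunits they replace, 7 were higher and 0 lower (median 1.32). The constitutive proteasome had 16 of 28 higher and 6 lower (median 0.57, or 0.32 with the length offset), with PSMA6 (2.02) and PSMA2 (2.01) at one end and PSMD2 (-1.03) at the other.

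Genes were sorted by their response to IFNw in wild-type cells, in libraries that the H11 comparison does not hold. IFNw raised 734 genes by 2-fold or more (5.78%) and lowered 466 (3.67%). Of the 50 genes it raised 16-fold or more, 32 were higher and 4 lower in optimized than wild-type cells with H11 (median 2.01). The level of a gene of this class in optimized cells with H11 was 101% of the level with IFNw at the median, against 26.4% for the same ratio in wild-type cells. With unmodified IFNL3 the same ratio was 66.2% in optimized and 27.7% in wild-type cells. The wild-type IFNw libraries set the classes and are also the base of the wild-type ratio, but not of the optimized one. What part this had in the gap between the genotypes was not tested. Of the 70 genes raised 4-fold to 16-fold, 43 were higher and 9 lower (median 1.28), with 97.9% in optimized and 33.7% in wild-type cells. Of the 614 raised 2-fold to 4-fold, 531 were higher and 13 lower (median 1.61), with 97.9% and 31.6%. These percentages take no account of the untreated level. Against untreated wild-type cells, 85 of these 614 genes were higher and 271 lower in wild-type cells with H11 (median -0.37). Over all 12704 genes tested, this contrast had 2317 higher and 2615 lower (median -0.02). By the same contrast 40 of the 50 genes were higher and 0 lower (median 4.92), and 31 of the 70 higher and 7 lower (median 0.93). That contrast and the sorting into classes both have the untreated wild-type libraries as their base. What part this had in these counts and medians was not tested. Among the 466 lowered genes 30 were higher and 217 lower (median -0.62), and wild-type cells with H11 stood at 185% of their IFNw level. With the length offset these classes had medians of 2.01, 1.0, 1.42 and -0.42, the last being the lowered genes.

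**Figure D3:**
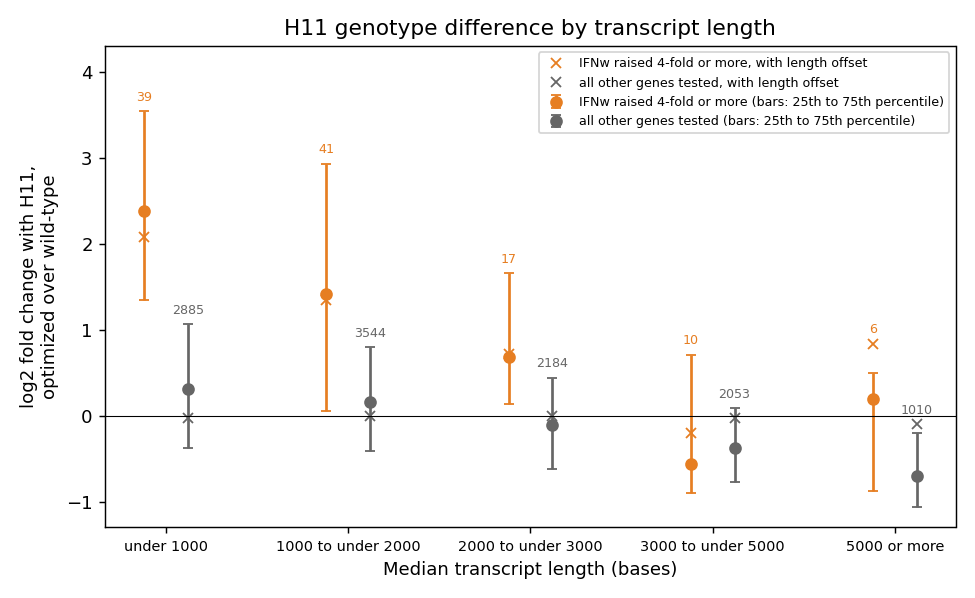
Medians of the H11 log2 fold change, optimized over wild-type, in bins of transcript length for genes that IFNw raised 4-fold or more (orange) and all other genes tested (grey), with bars from the 25th to the 75th percentile, numbers of genes above them and crosses for the length offset. Orange medians lie above grey ones except from 3000 to under 5000 bases, where 10 genes had a median of -0.56.

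Transcript length went with these differences. Among genes that IFNw raised 4-fold or more, the 39 with transcripts under 1000 bases had a median of 2.38, with 33 higher and 0 lower, while other genes of that length had a median of 0.31. From 1000 to under 2000 bases 41 such genes had a median of 1.42 (other genes 0.15). The longer bins are thin: 17 genes at 0.69 from 2000 to under 3000 bases, 10 at -0.56 from 3000 to under 5000 bases and 6 at 0.19 beyond, against -0.11, -0.38 and -0.70 in other genes. With the offset the bins of IFNw-raised genes stood at 2.07, 1.35, 0.72, -0.20 and 0.84, from the shortest to the longest. Other genes stood near 0, which the offset itself brings about, since it was fitted to length across the genes tested. The length used is the median over a gene's annotated transcripts, which need not be the one these cells make.

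Of the 120 genes that IFNw raised 4-fold or more, 79 had a promoter window, and the ISRE core was found in 43.0% of these. It was found in 3.43% of the 9560 tested genes with a window. A gene counted if any of its windows held the core. Of all 35116 single windows of that length, 3.02% held it. Within those 79, it was in 45.7% of the 46 genes that were higher in optimized cells with H11, 45.5% of the 11 that were lower and 36.4% of the 22 not called. The GAS core was in 20.3% of the 79 and 7.13% of the tested genes. A match is a description of letters in the window and no more. Over all genes called with H11 the ISRE core was in 3.85% of the higher and 3.92% of the lower ones.

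Outside the interferon genes, targets of YAP and TGF-beta signalling were lower in optimized cells with H11, in 10 of 12 with 0 higher (median -1.78, or -1.66 with the length offset). CYR61, a matrix protein and target of the factor YAP, was at 29.6 and 24.3 CPM in optimized cells and 214 and 216 CPM in wild-type cells (-2.99 ± 0.14). Untreated cells had 19.4 CPM in both genotypes, and IFNw gave 30.3 and 29.1 CPM in optimized and wild-type cells. With IFNL3 the wild-type mean of 227 CPM also lay above these. AMOTL2, which restrains YAP, was at 11.8 and 8.53 CPM against 46.7 and 53.6 CPM (-2.30 ± 0.22), and THBS1 at 2.44 and 3.41 CPM against 16.4 and 13.1 CPM (-2.34 ± 0.30). ID1, a target of BMP signals, stood at 32.5 and 44.1 CPM in optimized cells against 143 and 142 CPM (-1.90 ± 0.16). The noncoding RNA NEAT1, the scaffold of nuclear paraspeckles, was at 50.02 and 56.2 CPM in optimized cells against 570 and 632 CPM in wild-type cells (-3.50 ± 0.18). Means of NEAT1 were 112 CPM in untreated optimized and 104 CPM in untreated wild-type cells. PI15, a protease inhibitor, was at 0.513 and 0.284 CPM against 21.0 and 25.7 CPM (-5.81 ± 0.34). The interleukin-7 receptor chain IL7R had 0 reads in optimized cells and 138 in wild-type cells, at least 28.9-fold lower when 3 reads are allowed over the group. CRYAB, a small heat shock protein, had 3 reads in optimized cells and 301 in wild-type cells, 63.1-fold lower (exact 95% counting interval 21.4 to 308). IL7R and CRYAB had at most 0.314 CPM as a mean in untreated cells of either genotype, while wild-type cells with IFNL3 had 6.09 CPM of IL7R and 13.5 CPM of CRYAB.

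**Figure D4:**
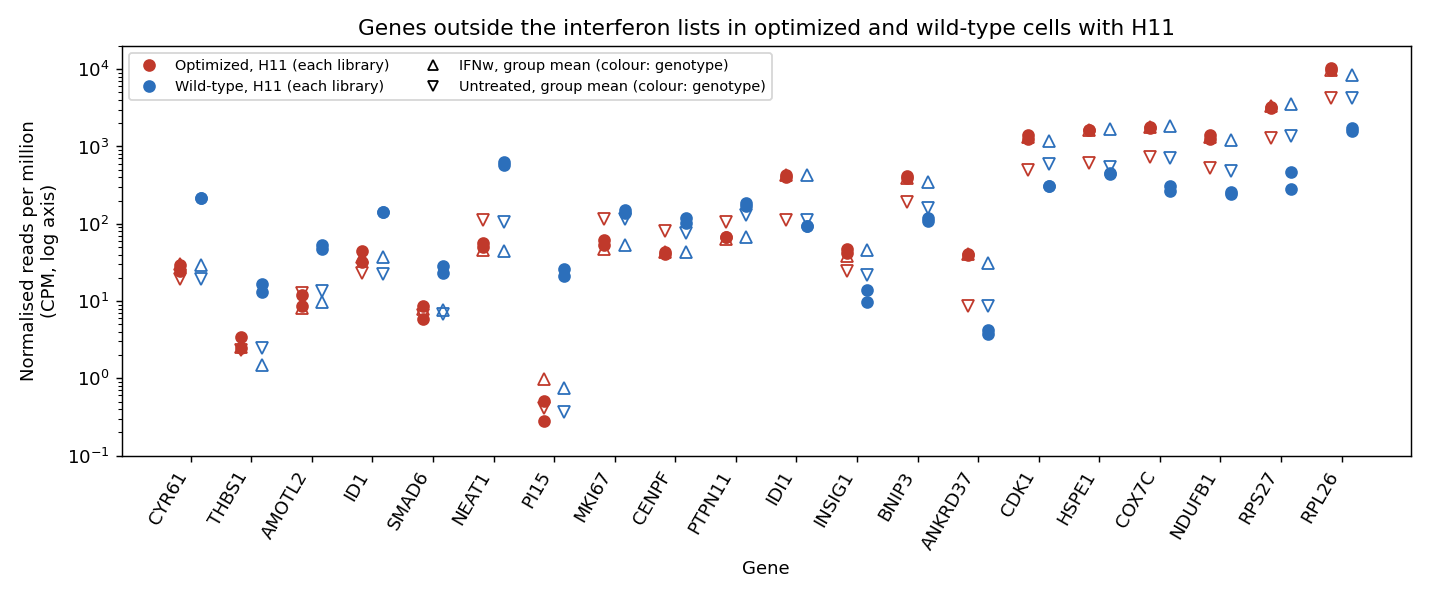
Levels in CPM (log axis) of genes outside the interferon lists, with a filled point for each H11 library of optimized (red) and wild-type (blue) cells and open triangles for the means with IFNw and in untreated cells. From CYR61 to PI15 the wild-type points lie above all other marks of the same gene, and from CDK1 to RPL26 the wild-type points lie below their untreated means.

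Genes of cholesterol synthesis were higher in optimized cells in 16 of 28, with 2 lower (median 0.68). IDI1, which isomerises the isoprenoid precursor, was at 407 and 422 CPM against 95 and 92.7 CPM (2.14 ± 0.11), and INSIG1, which retains the sterol sensor in the endoplasmic reticulum, at 41.7 and 46.5 CPM against 9.83 and 13.8 CPM (1.90 ± 0.19). The lower members were the fatty acid enzymes ACACA (-1.01) and FASN (-0.87). Chaperones of the endoplasmic reticulum were higher in 10 of 16 with 2 lower (median 0.52), led by SDF2L1 (1.97) and PDIA4 (1.68). Among genes of glycolysis and hypoxia 8 of 24 were higher and 5 lower (median 0.21, or 0.14 with the length offset), and 2 or 3 were lower with any 1 of the 4 libraries left out. The list held ANKRD37, a target of hypoxia-inducible factor, at 40.8 and 39.0 CPM against 3.74 and 4.22 CPM (3.32 ± 0.27). The mitosis list had 12 of 20 lower and 1 higher (median -0.53), or 3 higher with the replicate block. MKI67, the proliferation marker Ki-67, was at 52.5 and 60.8 CPM against 138 and 149 CPM (-1.34 ± 0.16, or -0.54 with the length offset), while the kinase CDK1 was higher, at 1417 and 1259 CPM against 308 and 305 CPM (2.12 ± 0.16). Aminoacyl-tRNA synthetases were lower in 11 of 20 and higher in 3 (median -0.53).

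Ribosomal protein and respiratory chain genes were mostly higher in optimized cells. Of 66 ribosomal protein genes 60 were higher in optimized cells and 0 lower (median 1.38), and of 69 respiratory chain genes 59 were higher and 1 lower (median 1.17). With the length offset these medians were 1.09 and 0.90. RPL26 was at 10223 and 9737 CPM in optimized cells with H11 against 1603 and 1760 CPM in wild-type cells with H11 (2.57 ± 0.12), where means were 4222 CPM in untreated optimized and 4292 CPM in untreated wild-type cells. The ribosomal list summed to 257084 and 261754 CPM in optimized cells and 100874 and 101006 CPM in wild-type cells. What part the share of reads in the top genes had in this was not tested. COX7C, a subunit of cytochrome oxidase, was at 1769 and 1757 CPM against 267 and 306 CPM (2.62 ± 0.13). RPS27 was at 3224 and 3177 CPM against 465 and 283 CPM (3.10 ± 0.17). Histone genes were higher in 11 of 17 and lower in 1 (median 0.85), with HIST1H4C at 4792 and 4674 CPM against 1133 and 1327 CPM (1.94 ± 0.13). The reads of ribosomal protein and histone genes may be shared with near-identical copies. ACTB was at 3945 and 4198 CPM against 7839 and 7834 CPM (-0.94 ± 0.11). GAPDH was at -0.30 ± 0.12, or -0.54 with the length offset, a call lost by DESeq2 and with its size factors (-0.27 in both) and without any 1 of the 4 libraries (-0.35 to -0.25).

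In the remaining lists, chemokines aside, called members went in both directions. Over all genes tested 51.7% were called. Immediate early genes had 2 of 19 higher and 5 lower (median 0.10, or 0.06 without replicate 1 and -0.03 without replicate 2 of optimized cells and -0.15 without replicate 1 of wild-type cells), and ETV5, a factor downstream of growth-factor signalling, was lower (-2.75 ± 0.47). Targets of WNT (1 higher and 1 lower of 6; median -0.10, but 0.20 with the length offset and from -0.43 to 0.21 with a library left out), NF-kappaB (1 and 2 of 8, median -0.60) and p53 (4 and 2 of 15, median 0.21) had few calls. No NF-kappaB target was lower without replicate 2 of optimized cells or without replicate 2 of wild-type cells, 1 was with the length offset or without either replicate 1, and 4 were with only the groups compared or without the low-count filter. The p53 median was 0.36 with the length offset and 0.50 without replicate 1 of wild-type cells. Heat shock chaperones had 5 higher and 5 lower of 18 (median -0.10, or -0.17 with the length offset and -0.06 without replicate 2 of optimized cells). DNA replication had 5 and 6 of 23 (median -0.21, or -0.11 with the offset and -0.14 without replicate 2 of wild-type cells). The amino-acid response to ATF4 had 3 and 8 of 22 (median -0.12, or -0.32 with the offset, -0.29 without replicate 1 of optimized cells and -0.38 without replicate 1 of wild-type cells). HSPE1, the mitochondrial co-chaperonin, was at 1628 and 1653 CPM against 451 and 434 CPM (1.89 ± 0.13), and the cystine transporter SLC7A11 at 15.9 and 18.1 CPM against 44.9 and 59.7 CPM (-1.62 ± 0.22, or -0.89 with the length offset). Means of SLC7A11 were 121 CPM in untreated optimized and 104 CPM in untreated wild-type cells. Within the chemokines, CXCL10 was at 1.03 and 0.711 CPM in optimized cells and 0 and 0.91 CPM in wild-type cells, not called (0.90 ± 0.88) unless replicate 2 of wild-type cells was left out, which leaves 0 reads in that group, and CCL2 was lower by a call (-0.82 ± 0.32) lost by DESeq2, without the filter, with only the groups compared and without either optimized library or replicate 2 of wild-type cells (-0.54).

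Tests of the difference between treatments placed these results. The genotype difference with H11 exceeded that in untreated cells in 2480 genes (19.5%) and fell below it in 2210 (17.4%), 36.9% in all. Against the genotype difference with IFNw, 2417 were above and 2113 below (35.7%). Against that with IFNL3, 420 were above (3.31%) and 155 below (1.22%), 4.53% in all. With IFNL3 itself, 2300 genes were higher (18.1%) and 1920 lower (15.1%) in optimized cells. The H11 and IFNL3 genotype comparisons share no library: 2017 genes were higher in both, 62.0% of the H11 calls and 87.7% of the IFNL3 calls, and 1596 were lower in both, 48.2% and 83.1%. In opposite directions 5 were called. IFI27 was among the genes whose difference with H11 exceeded that with IFNL3, at 7.58 against 6.0, as were PSMB9 (4.62 against 3.0), IFIT1 (1.64 against 0.57) and TAP1 (1.66 against 0.71). These 4 were called with the length offset and with each of the 8 H11 and IFNL3 libraries left out in turn. For CYR61 (-2.99 against -2.85) and OAS3 (-1.74 against -1.53) the difference between the ligands was not called. These counts varied with the fit, from 112 to 819 above and from 15 to 501 below.

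**Figure D5:**
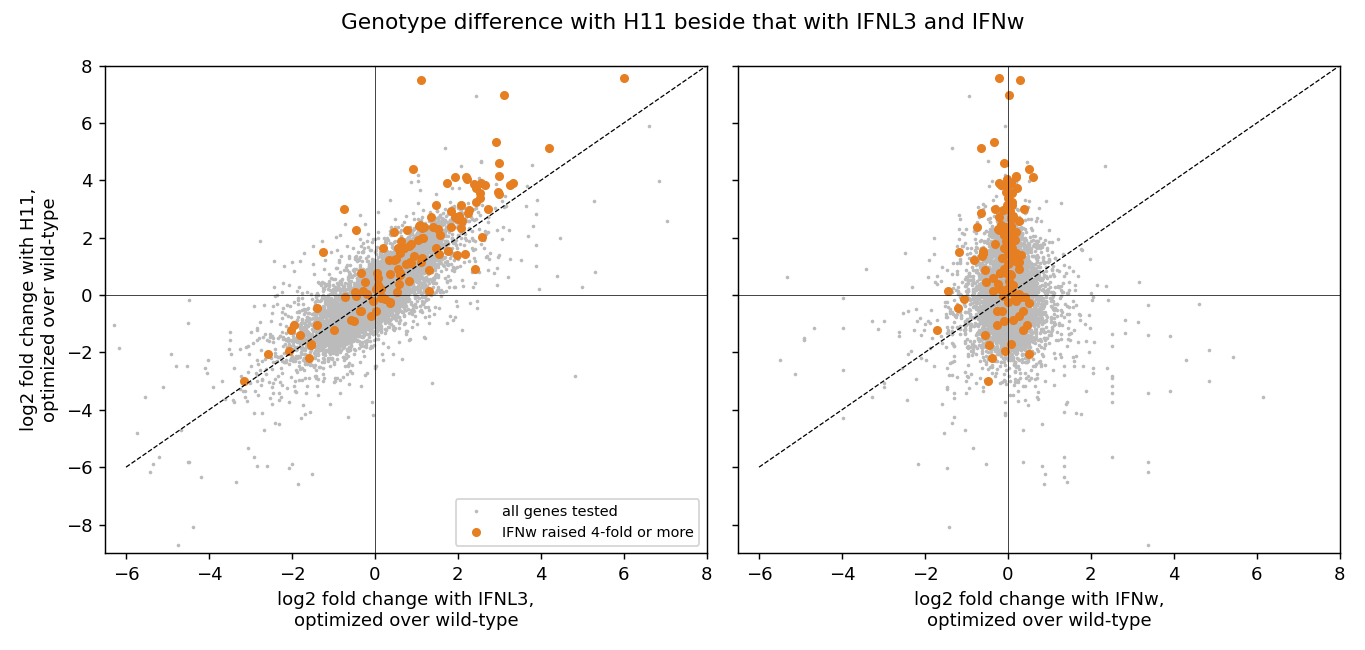
The log2 fold change of optimized over wild-type cells with H11 (vertical axis) against the same with IFNL3 (left) and with IFNw (right) for each gene tested, with genes that IFNw raised 4-fold or more in orange and a dashed line where both are equal. With IFNL3 the genes follow the line, with many orange points above it, and with IFNw they stand upright around 0.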

How the data were processed

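The deposited files hold counts, whole numbers of reads for each gene target, not normalized. Per the submitters' processing notes the build was hg19, and no source used here names the aligner or counter. Of 20812 targets, 10 spike-in controls (at most 1 read) were left out; 27 of 28 symbols that had become dates were restored. The tests used edgeR 4.0.16 under R 4.3.3 (filterByExpr, TMM, quasi-likelihood; Benjamini-Hochberg threshold 0.05 over 12704 genes), with all 16 libraries and 1 coefficient per group; the common dispersion was 0.0176. CPM used TMM-scaled totals. Replicates differed by more than sampling noise (chi-square per degree of freedom 6.31 to 24.6). Intervals cover counting error only.

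Alternatives were DESeq2 1.42.0, its size factors, no filter, a replicate block, only the groups compared, a transcript length offset (GENCODE v29 median length, spline of 5 degrees of freedom) and each library left out. The fit was tested on simulated counts in which few genes changed, equally in both directions, with no length trend. That test could not show how the fit acts where as many genes change as here. The members, gene lists (35, with 630 of 633 memberships matched) and tests were chosen with earlier results of these data known. H11 against IFNw in optimized cells, the length bins and the promoter search were added after the data were seen. Named genes were those with the largest called fold changes and a mean of 5 CPM or more, called list members, receptors and a panel by level, the largest differences between treatments and the extremes of each IFNw class; TAP2, HERC5 and the marker genes at 0 reads were named after their values were seen. Some genes are not reported here.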

Additional observations from a re-analysis of the deposited data

Results flagged for a closer look

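The genotype difference was tested against that of every other treatment with edgeR's quasi-likelihood test, and these results differed between treatments. Against untreated cells 2480 genes lay above and 2210 below. IFI27 differed by 6.47 on the log2 scale, CARD16, which regulates caspase-1, by 5.34 and B2M by 4.54. PI15 was at -5.90, DNAJC15 at -4.63 and GADL1 at -4.26. Of 16 genes named by this contrast, some lost their call with a library left out and 0 with the length offset.

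Against IFNL3 420 genes lay above and 155 below. ECHDC3 was at 2.94, LARP7, which binds the 7SK RNA, at 2.12 and C21orf2 at 2.12, with ETV5 at -3.20, LOC283174 at -2.03 and FAM102A at -1.62. With each of the 8 libraries of the contrast left out in turn, ECHDC3, LARP7 and FAM102A lost their calls in 7 cases, LOC283174 in 8, C21orf2 in 4 and ETV5 in 0, and with the length offset ECHDC3, LARP7 and FAM102A lost theirs. Of 16 genes named by this contrast, 14 lost their call with at least 1 library left out and 8 with the length offset. ETV5 was at 0.77 and 0.853 CPM in optimized cells with H11 against 5.74 and 5.29 CPM in wild-type cells with H11. With IFNL3, optimized cells had 5.34 CPM and wild-type cells 3.89 CPM.

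Against IFNw 2417 genes lay above and 2113 below. IFI27 was at 7.78, PSMB9 at 4.70 and SULT2B1, a sterol sulfotransferase, at 4.58. PI15 was at -6.18, POU5F1P4 at -3.72 and ARGFXP2 at -3.71. Among 16 genes named by this contrast, 1 lost its call with only the groups compared and 0 with the length offset. Some lost theirs with a library left out. SULT2B1 was at 10.6 and 9.81 CPM in optimized cells with H11 against 0.261 and 0.579 CPM in wild-type cells with H11. Untreated optimized cells had 7.92 CPM and untreated wild-type cells 6.0 CPM.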

How the results depend on the processing

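The genotype difference with H11 was called for 6565 genes in the reported fit, 6035 by DESeq2, 6101 with the length offset, 7122 with the replicate block and 5207 to 5396 with a library left out. Of 268 named genes tested, 0 changed its call with the block, 8 did with DESeq2, 25 with the length offset and 34 with a library left out. With the offset PSMD12 was at 0.0032, against -0.31. The replicate numbers do not pair the libraries by any label, and same-numbered libraries of the H11 groups correlated at 0.16 in their deviations from the group means.

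Untreated calls were 4 higher and 46 lower without the low-count filter, and 0 to 338 higher and 0 to 942 lower with a library left out, the highest values being without replicate 1 of optimized cells; without replicate 1 of wild-type cells 1 was higher. IFNL3 gave 1154 to 1223 lower genes with a library left out. Differences against IFNL3 were the least settled: above it lay 675 genes by DESeq2, 819 with the replicate block, 796 with only the groups compared, 216 with the length offset and 112 to 207 with a library left out; below it lay 246 by DESeq2, 277 without the filter, 444 with the block, 501 with only the groups compared, 96 with the length offset and 15 to 47 with a library left out. The cause was not tested. With 2 libraries a group, leaving a library out leaves 1, and its spread is then taken from the other groups.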
